A study of Mus musculus with 2 samples.

Results

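The genes described here are 10 regulators of the cell cycle brake: Trp53, which encodes p53; its antagonist Mdm2; the p53 target genes Cdkn1a, Bbc3 and Ccng1; and the inhibitors of cyclin-dependent kinases Cdkn1b, Cdkn2a, Cdkn2b, Cdkn2c and Cdkn2d. They were chosen by name, with earlier results of these data known, and every entry of the deposited expression table that carried one of these symbols was taken. This gave 11 entries of 29126, for 10 of the 20766 gene symbols in the table, because Cdkn2d is listed at 2 places.

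The data are RPKM values, read numbers scaled to the length of the transcript and to the size of the library, from mRNA-seq of mouse embryonic fibroblasts (MEFs), cells grown in culture from the connective tissue of an embryo. There was 1 library of Dnmt1-/- MEFs, homozygous for a hypomorphic allele of Dnmt1, the enzyme that copies DNA methylation to new strands, and 1 library of Dnmt1+/+ MEFs. Both lines are also homozygous null for Trp53, so p53 was absent from both sides of the comparison. Both were obtained from another laboratory, the age of the embryos was not given and the strain was labelled unknown. With 1 library per genotype there is no replicate check, no test was possible, and every value describes these 2 libraries.

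Cells pass from G1 into S phase when cyclin-dependent kinases (CDKs) phosphorylate the retinoblastoma protein and release E2F factors. The Ink4 proteins, encoded by Cdkn2a to Cdkn2d, bind Cdk4 and Cdk6 directly, whereas the Cip/Kip proteins, encoded by Cdkn1a and Cdkn1b, bind cyclin-CDK complexes and mainly restrain Cdk2. Cdkn2a also encodes Arf, which sequesters Mdm2 and so frees p53, and p53 in turn activates Cdkn1a, Bbc3, Ccng1 and Mdm2. Cdkn2a and Cdkn2b become active as fibroblasts are passaged in culture, and loss of p53 is one of the ways by which cells escape the arrest that follows.

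The identity of the libraries was checked first. Dnmt1 itself was listed at 65.2 RPKM in Dnmt1+/+ and 14.5 RPKM in Dnmt1-/-. Of 14 fibroblast markers, 12 reached 1 RPKM in at least 1 library, with Vim, an intermediate filament of mesenchymal cells, and Col1a1, a fibrillar collagen, among the highest, but Thy1 was at 4.84 and 0.129 RPKM, Fn1 at 663.7 and 235.5 RPKM and Col1a2 at 1241 and 475.9 RPKM, while Pdgfra was at 6.95 and 18.7 RPKM and S100a4 at 289.6 and 1262 RPKM. The summed level of the list was 6441 RPKM in Dnmt1+/+ and 5121 RPKM in Dnmt1-/-. Of 20 markers of other cell types, 17 were under 1 RPKM in both libraries, and Ptprc, Adgre1 and Rbfox3 were listed at 0 in both. Csf1r (0.0702 and 6.08 RPKM) and Cd68 (0.596 and 3.63 RPKM), genes known from macrophages, were higher in Dnmt1-/-. The other macrophage and leukocyte markers of the list were not: Adgre1 and Ptprc stood at 0, and Itgam was listed at 0 and at 0.0186 RPKM. The list summed to 19.1 and 24.5 RPKM, mostly Tubb3 (16.9 and 12.9 RPKM), and without Tubb3 to 2.21 and 11.6 RPKM. Xist was at 0.00648 and 37.0 RPKM and the Y-linked Ddx3y at 13.9 and 0 RPKM, genes named here after their values were seen, so the lines differ in more than Dnmt1, and line and genotype cannot be told apart in any value below. The part of these differences in the results was not tested.

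Among the 11 member entries, 2 were more than 2-fold higher in Dnmt1-/- and 4 were more than 2-fold lower, with 5 in between. Both higher entries belong to Cdkn2d, and the lower ones are Cdkn1a, Cdkn2b, Cdkn2a and Bbc3. Of the 11244 genes that had status OK and reached 1 RPKM in at least 1 library, 8.47% exceeded 2-fold upwards and 10.9% downwards. Changes are given as the difference of log2(RPKM + 0.1), Dnmt1-/- minus Dnmt1+/+, a scale on which changes at low RPKM look smaller than they are. The median change of the member entries was -0.45, beside -0.14 for all genes kept. All 11 entries passed the filter, and the members' levels spanned 1.41 to 327.9 RPKM, so they include some of the most abundant and some of the weakest messages of these cells. In such cultures, fewer cells that express a gene and less RNA in each cell cannot be told apart.

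By level per length, and with the copies of Cdkn2d summed, the order in Dnmt1+/+ was Cdkn2a, Cdkn2b, Cdkn1b, Ccng1, Mdm2, Trp53, Cdkn2c, Cdkn2d, Cdkn1a and Bbc3. In Dnmt1-/- it was Cdkn2a, Cdkn1b, Mdm2, Cdkn2c, Cdkn2d, Trp53, Ccng1, Cdkn2b, Bbc3 and Cdkn1a. Cdkn2a headed both orders, Cdkn2b stood second in one and eighth in the other, and Cdkn1a came last in Dnmt1-/-. Without replicates, neighbours in either order that lie close together, such as the 5 genes from Cdkn2c to Cdkn2b in Dnmt1-/-, cannot be ranked beyond error. The place of Cdkn2d also rests on the sum of its copies, which is too high if the same reads were counted at both.

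**Figure D1:**
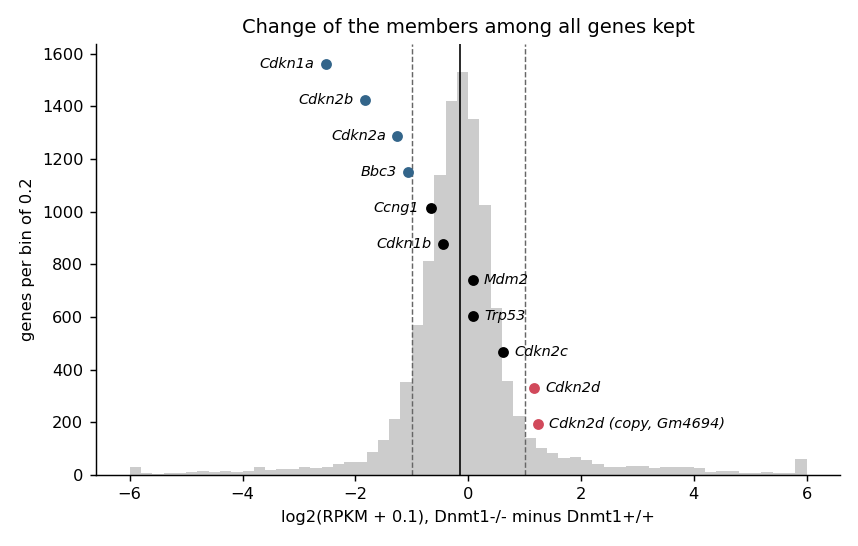
Histogram of the change in log2(RPKM + 0.1) over the 11244 genes kept, with the member entries as points at their change (their height carries no value). Dashed lines mark 2-fold, the solid line the median of -0.14, and genes beyond either end of the axis are counted in the last bin. Cdkn1a, Cdkn2b, Cdkn2a and Bbc3 lie left of the lower dashed line and both entries of Cdkn2d right of the upper one.

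**Figure D2:**
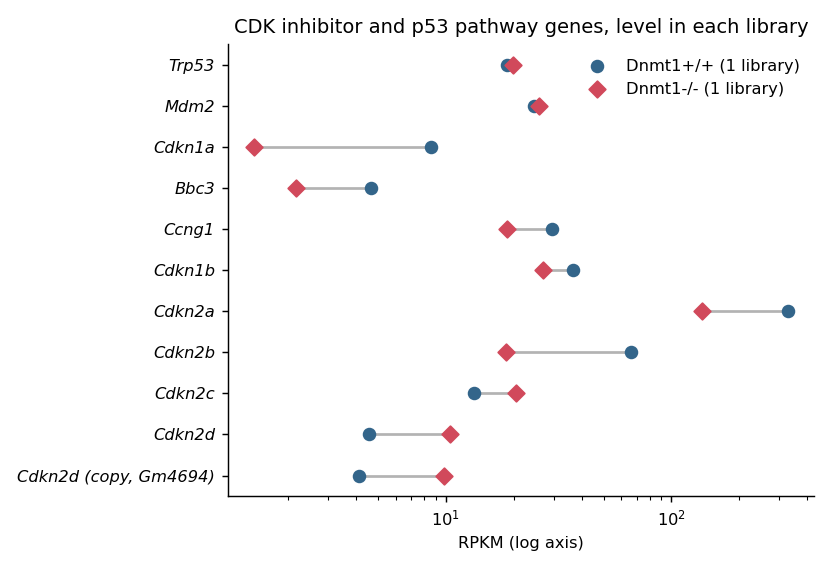
Level of each of the 11 member entries in RPKM on a log axis, with a circle for the Dnmt1+/+ library and a diamond for the Dnmt1-/- library. Trp53 and Mdm2 nearly coincide, whereas Cdkn1a lies at 8.61 RPKM in one library and 1.41 RPKM in the other, and Cdkn2a is the most abundant member in both.

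Trp53 messenger RNA was present in both null lines at nearly the same level. It was listed at 18.6 RPKM in Dnmt1+/+ and 19.9 RPKM in Dnmt1-/-, a change of 0.09. The entry lies at chr11:69393630-69405375 on the plus strand of mm9 and spans the whole annotated gene, and the sequences removed or altered in the null allele were not given in the sources used here. One value for the whole entry cannot show whether the RNA encodes a protein, and so it checks nothing about the label. Wrap53, a gene whose entry starts within 0.289 kb of Trp53 on the lower side, was at 3.71 and 4.94 RPKM. The sources do not say if read strand guided the assignment to genes, so reads where neighbouring or overlapping genes meet are uncertain.

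Mdm2, the ubiquitin ligase that marks p53 for destruction and is itself a p53 target, was equally close, at 24.5 RPKM in Dnmt1+/+ and 25.8 RPKM in Dnmt1-/-, a change of 0.08. Its entry spans chr10:117125961-117147772 on the minus strand. Of all genes kept, 64.5% had a lower value of change than Mdm2 and 65.5% a lower value than Trp53, so both stand close to the middle of the distribution. Its paralog Mdm4, which binds p53 and blocks its activity, was at 11.2 and 10.1 RPKM. The p53 relatives Trp63 (0.549 and 0.312 RPKM) and Trp73 (listed at 0 and at 0.00313 RPKM) were under 1 RPKM in both libraries.

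Cdkn1a, which encodes p21, the classical p53-induced inhibitor of Cdk2, had the largest change of the members. It was at 8.61 RPKM in Dnmt1+/+ and 1.41 RPKM in Dnmt1-/-, 6.09-fold lower, a change of -2.52. Only 2.45% of the genes kept had a more negative change, and Cdkn1a went from rank 6543 to rank 10177 of 11244 by level. The entry covers chr17:29227931-29237667 on the plus strand, taking in 3 annotated protein-coding transcripts that begin at different first exons, so the values do not tell from which start the RNA came. The nearest entry with a symbol, LOC100499420, 12.0 kb away, was at 0.345 and 0.0705 RPKM, under the limit of 1 RPKM, a change of -1.38 in the same direction. Farther off, Srsf3, a splicing factor 47.6 kb away, was at 180.4 and 155.8 RPKM, and Ppil1, a splicing-associated isomerase on the other side, was at 58.1 and 60.3 RPKM.

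Bbc3, which encodes the pro-apoptotic BH3-only protein Puma, was at 4.64 RPKM in Dnmt1+/+ and 2.17 RPKM in Dnmt1-/-. This is 2.14-fold lower, a change of -1.06, which came to lie within 2-fold once the median of all genes was subtracted (-0.92) or with a pseudocount of 1 (-0.83). The entry lies at chr7:16894932-16903683 on the plus strand. The gene next to it, Sae1, a subunit of the SUMO-activating enzyme, was at 62.2 and 63.9 RPKM.

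Ccng1, which encodes cyclin G1, a p53 target that recruits a phosphatase to Mdm2, was at 29.7 RPKM in Dnmt1+/+ and 18.7 RPKM in Dnmt1-/-. The change of -0.66 is 1.59-fold and was the closest to 2-fold among the members that stayed within it on the lower side. The entry lies at chr11:40562054-40568788 on the minus strand. The 4 member genes that p53 activates therefore took different courses in cells that have no p53, from no difference in Mdm2 through Ccng1 and Bbc3 to the largest difference in Cdkn1a.

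Sequences just upstream of 1 RefSeq start each of Cdkn1a, Bbc3 and Ccng1 are shown. These members are known as direct p53 targets and were all lower in the Dnmt1-/- line of a pair that lacks p53. The windows printed are those that held a match. Those at the other RefSeq starts of Cdkn1a (chr17:29093519-29093768) and Bbc3 held none and are left out. Each run holds the 250 bases before a RefSeq start on build GRCm38.p6, a later build than that of the expression table, and is written 5′ to 3′ on the strand of the gene. Capitals mark the best match to the p53 response element, taken as 2 adjoining decamers with no spacer, in which the C and the G that bound the core of each decamer were required, and up to 3 mismatches were allowed at the other positions, the inner core bases included.

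Cdkn1a, upstream start, chr17:29090729-29090978, plus strand: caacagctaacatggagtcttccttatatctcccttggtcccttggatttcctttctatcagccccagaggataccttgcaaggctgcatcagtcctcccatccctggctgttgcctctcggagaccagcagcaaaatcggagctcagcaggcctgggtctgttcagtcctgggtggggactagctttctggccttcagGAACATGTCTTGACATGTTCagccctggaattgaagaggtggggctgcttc
Ccng1, chr11:40755287-40755536, minus strand: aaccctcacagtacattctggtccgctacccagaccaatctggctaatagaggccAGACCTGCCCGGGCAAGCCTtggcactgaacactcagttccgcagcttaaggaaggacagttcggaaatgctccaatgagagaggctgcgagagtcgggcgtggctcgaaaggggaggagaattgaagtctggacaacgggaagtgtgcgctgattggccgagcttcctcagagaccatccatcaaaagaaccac
Bbc3, first start, chr7:16309333-16309582, plus strand: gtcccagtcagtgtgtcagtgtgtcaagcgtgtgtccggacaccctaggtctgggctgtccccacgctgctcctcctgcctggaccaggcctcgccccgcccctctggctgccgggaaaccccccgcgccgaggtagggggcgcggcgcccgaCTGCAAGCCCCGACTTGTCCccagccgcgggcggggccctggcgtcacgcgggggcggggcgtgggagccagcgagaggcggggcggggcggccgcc

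In Cdkn1a the match began at -51 from the upstream start and had 1 mismatch. In Ccng1 it began at -195 with 1 mismatch, and in Bbc3 it began at -97 from the first start with 3 mismatches. Of 15 such windows for the 10 genes, 5 held a match of this kind, the others belonging to Cdkn1b and Trp53 with 3 mismatches each, whereas the share over all 32851 windows of the mouse table was 1.14%. The limit of 3 mismatches was chosen after the sequences had been seen, and several members are known for this element, so the count is a description. A match with 1 mismatch was found in both Ccng1 and Cdkn1a, with changes of -0.66 and -2.52. No match was found in the window of Mdm2, whose known p53-responsive start lies inside the gene. The part of the element in any of these changes was not tested.

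Cdkn1b encodes p27, the second Cip/Kip inhibitor, which holds Cdk2 in check in resting cells and is controlled largely at the protein level. It was at 36.7 RPKM in Dnmt1+/+ and 26.9 RPKM in Dnmt1-/-, a change of -0.45, which stood at the median of the members. The entry lies at chr6:134870383-134875543 on the plus strand. The nearest entry beyond it, 1190002F15Rik, went the other way, from 15.7 to 30.4 RPKM (0.95).

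Cdkn1b was the more abundant Cip/Kip message in both libraries, and more so in Dnmt1-/-. It exceeded Cdkn1a 4.27-fold in RPKM in Dnmt1+/+ and 19.05-fold in Dnmt1-/-. Cdkn1a thus made up 18.98% of the summed Cip/Kip RPKM in Dnmt1+/+ and 4.99% in Dnmt1-/-. The sum of both genes was 45.4 and 28.4 RPKM, 1.60-fold lower in Dnmt1-/- or 1.45-fold relative to the median change. The third Cip/Kip gene, Cdkn1c, an imprinted gene that encodes p57, was listed at 0 in Dnmt1+/+ and at 0.101 RPKM in Dnmt1-/-.

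Cdkn2a was the most abundant member by far. It was at 327.9 RPKM in Dnmt1+/+ and 137.0 RPKM in Dnmt1-/-, 2.39-fold lower, a change of -1.26. It ranked 142 of 11244 genes in Dnmt1+/+ and 437 in Dnmt1-/-, so even the lower level placed it in the top 3.89% of genes. The entry covers chr4:88920377-88940523 on the minus strand and holds both products of the locus. The Arf transcript begins at the exon chr4:88940238-88940523 and the Ink4a transcript at the exon chr4:88927890-88928096, after which both use the exons chr4:88922549-88922889 and chr4:88920377-88920678. The table gives 1 value for the gene, so the levels of Ink4a, the CDK inhibitor, and of Arf, the Mdm2 antagonist, could not be separated.

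Cdkn2b, which encodes p15, an Ink4 protein induced by TGF-beta, lies 11.7 kb from Cdkn2a at chr4:88952198-88956941 on the same strand and differed more strongly. It was at 65.9 RPKM in Dnmt1+/+ and 18.4 RPKM in Dnmt1-/-, 3.58-fold lower, a change of -1.84. The ratio of Cdkn2a to Cdkn2b RPKM was 4.98 in Dnmt1+/+ and 7.45 in Dnmt1-/-. Mtap, an enzyme of methionine salvage and the next gene with a symbol on the far side of Cdkn2a, 93.4 kb away, was at 66.9 and 51.6 RPKM, a change of -0.37.

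The RefSeq starts of this locus are shown because Arf, Ink4a and Cdkn2b differ widely in their content of CpG, the dinucleotide that Dnmt1 methylates. The runs again hold 250 bases upstream of the start on build GRCm38.p6, 5′ to 3′ on the minus strand, and capitals mark each CpG.

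Cdkn2a, Arf start, chr4:89294620-89294869: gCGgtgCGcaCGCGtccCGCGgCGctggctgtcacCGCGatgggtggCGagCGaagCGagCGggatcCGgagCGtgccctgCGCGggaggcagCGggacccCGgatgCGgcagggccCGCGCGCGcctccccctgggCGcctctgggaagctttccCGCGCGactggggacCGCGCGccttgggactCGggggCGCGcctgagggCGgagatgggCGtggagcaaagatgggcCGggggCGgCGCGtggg
Cdkn2a, Ink4a start, chr4:89282193-89282442: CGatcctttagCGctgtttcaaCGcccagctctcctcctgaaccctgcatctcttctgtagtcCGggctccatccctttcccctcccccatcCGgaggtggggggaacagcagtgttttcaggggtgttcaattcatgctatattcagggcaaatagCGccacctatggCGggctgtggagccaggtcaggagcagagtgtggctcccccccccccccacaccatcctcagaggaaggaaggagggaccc
Cdkn2b, chr4:89311033-89311282: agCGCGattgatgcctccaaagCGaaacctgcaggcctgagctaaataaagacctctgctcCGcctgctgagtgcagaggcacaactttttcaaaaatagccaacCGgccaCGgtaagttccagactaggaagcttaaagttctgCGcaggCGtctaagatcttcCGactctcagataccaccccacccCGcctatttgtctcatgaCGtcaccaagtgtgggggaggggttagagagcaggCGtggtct

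The window of Arf held 40 CpG, more than 98.7% of all windows in the table, that of Cdkn2b 12 and that of Ink4a 7, against a median of 6 over all windows. The window of Cdkn2b also held 1 match to the cyclic AMP response element, the letters TGACGTCA, which 1.55% of all windows hold. Over the 15 member windows the number of CpG ranged from 2, upstream of the first start of Cdkn1a, to 40, with a median of 19. A GC box, the letters GGGCGG on either strand, was found in 9 of the 15 windows and in 32.7% of all windows. These are counts of letters. No methylation measurement was analysed here. Cdkn1a and Cdkn2b, the members with the largest changes, had windows with 2 and 19 CpG at the 2 starts of Cdkn1a and 12 CpG at Cdkn2b.

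Between Cdkn2a and Cdkn2b the table lists 7 short entries without a gene symbol, 177 to 700 bp long, and all were lower in Dnmt1-/-. Their levels ranged from 1.35 to 17.4 RPKM in Dnmt1+/+ and from 0.0855 to 3.18 RPKM in Dnmt1-/-, and 4 were more than 2-fold lower. Their median change was -1.37. Over all 8014 entries without a symbol that reached 1 RPKM, 26.9% exceeded 2-fold downwards and 19.3% upwards. Their median change was -0.23, so most of them were also lower to some degree. The entry with 17.4 RPKM in Dnmt1+/+ was at 1.06 RPKM in Dnmt1-/-, and another with 1.40 RPKM was at 0.0855 RPKM, both 16.4-fold lower.

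The reads behind these short entries could be estimated in part. In entries without a symbol, both values were often whole-number multiples of the worth of 1 read. After division by the ratio most common in the table, 38.5% of their 7238 ratios between the libraries were ratios of whole numbers up to 30, within 1e-05 of the ratio, compared with 0.405% for entries with a symbol. In these terms both of the entries with a 16.4-fold difference stand as 15 reads to 1 read, or a multiple of these, and the other resolved ratios were 31 to 20, 29 to 19, 8 to 3 and 3 to 1, with whole numbers up to 60 allowed and 1 entry not resolved. The 11 member entries gave no such ratio, so the number of reads behind them was not recovered.

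**Figure D3:**
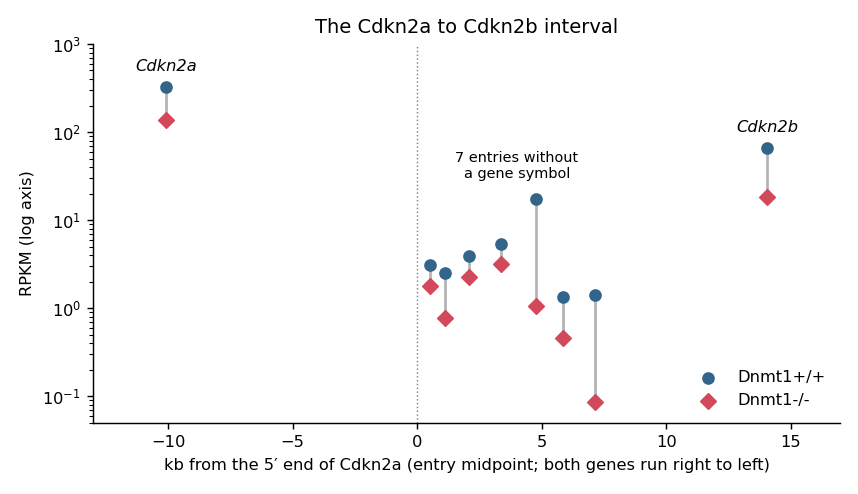
RPKM (log axis) of Cdkn2a, Cdkn2b and the 7 entries without a symbol between them, against the distance in kb of each entry's midpoint from the 5′ end of Cdkn2a, with circles for Dnmt1+/+ and diamonds for Dnmt1-/-. Each diamond lies below its circle, and the short entries are at most 17.4 RPKM.

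The other Ink4 genes went the opposite way. Cdkn2c encodes p18, and its entry lies at chr4:109333481-109339371 on the minus strand, far from Cdkn2a on the same chromosome. It was at 13.3 RPKM in Dnmt1+/+ and 20.5 RPKM in Dnmt1-/-, 1.54-fold higher, a change of 0.62, the closest to 2-fold among the members that stayed within it on the higher side. Faf1, the gene on its 5′ side, was at 25.3 and 17.2 RPKM, whereas Dmrta2, 311.1 kb away, was at 0.393 and 2.21 RPKM.

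Cdkn2d, which encodes p19, an Ink4 protein that peaks in S phase, is listed at 2 places on chromosome 9 of mm9. The entry at chr9:21092908-21095653 on the minus strand was at 4.56 RPKM in Dnmt1+/+ and 10.4 RPKM in Dnmt1-/-, 2.28-fold higher, a change of 1.17. The entry at chr9:123836860-123839607 on the plus strand, annotated as Gm4694 in GENCODE vM1, was at 4.10 and 9.83 RPKM, a change of 1.24. These are not independent observations. The 2 genomic copies share 2744 identical bases with 3 mismatches and 2 gaps, an identity of 99.8%. Counted over the whole genomic span, intron included, 94.3% of their 50-base stretches are the same. Most reads of this length therefore could not be assigned to one or the other. Summed, the copies were at 8.66 and 20.2 RPKM, 2.34-fold higher in Dnmt1-/-. The sources do not say if reads that fit both copies were divided between them or counted at each. In the latter case the summed levels are too high. The neighbours of the first copy were Kri1, a ribosome biogenesis factor, at 21.9 and 24.95 RPKM, and Slc44a2, a choline transporter, at 29.3 and 46.5 RPKM.

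The 4 Cdkn2 genes were also summed, with the limit that the Cdkn2a value holds Arf as well as Ink4a, and Arf does not bind CDKs. Their summed RPKM was 415.8 in Dnmt1+/+ and 196.1 in Dnmt1-/-, 2.12-fold lower, or 1.92-fold relative to the median change of all genes. Cdkn2a made up 78.9% of the sum in Dnmt1+/+ and 69.9% in Dnmt1-/-, and Cdkn2b 15.9% and 9.38%. Cdkn2c and Cdkn2d, each a few percent in Dnmt1+/+ at 3.20% and 2.08%, came to 10.4% and 10.3%. The share of Cdkn2d is too high if the same reads were counted at both copies. Without Cdkn2a, the other 3 genes summed to 87.9 and 59.1 RPKM, with Cdkn2b lower and Cdkn2c and Cdkn2d higher in Dnmt1-/-. The kinases that the Ink4 proteins bind, Cdk4 and Cdk6, summed to 246.0 and 210.7 RPKM. These are sums of messages and carry no measurement of protein.

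**Figure D4:**
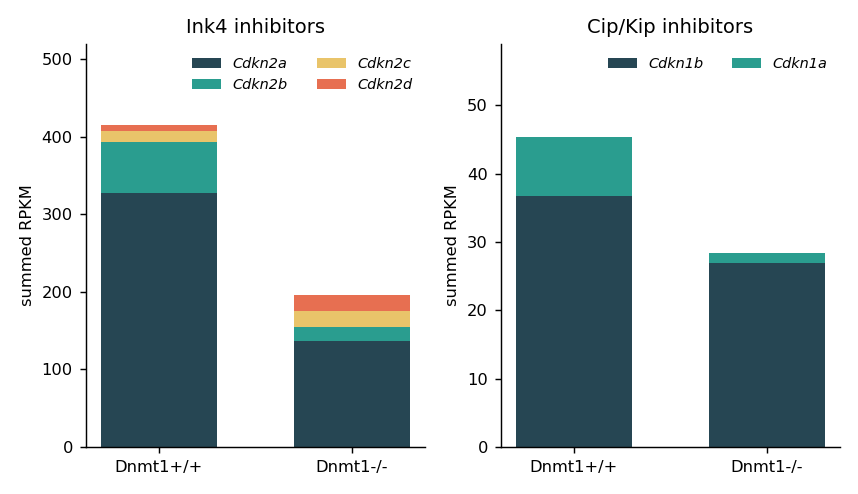
Summed RPKM of the Cdkn2 genes, titled Ink4 (left), in which Cdkn2a includes Arf, and the Cip/Kip genes (right) in the Dnmt1+/+ and Dnmt1-/- libraries, with each gene as a coloured part of the bar and both entries of Cdkn2d added. The Cdkn2 sum is 415.8 RPKM in Dnmt1+/+ and 196.1 RPKM in Dnmt1-/-, and the parts of Cdkn2c and Cdkn2d are larger in the second bar.

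Other genes that flank the members were also counted, taking the nearest 2 entries with a symbol on each side and leaving out Cdkn2a and Cdkn2b, which neighbour each other and were both lower. Of 39 distinct neighbours, 30 passed the filter. Distances ran from 0.289 kb (Wrap53 to Trp53) to 5210 kb (5830433M19Rik to Cdkn2b), so not all of these genes are close by. Of the 30, 2 were more than 2-fold higher and 0 were more than 2-fold lower. The higher ones were Dmrta2 and Gm12603, 189.9 kb from Cdkn2a, at 2.14 and 6.27 RPKM. The shares over all genes were 8.47% and 10.9%, so few were to be counted either way among 30. The median change of the 30 was 0.05. Of the 9 under the filter, 2 had changes beyond 2-fold downwards (LOC100499420 and, beside Mdm2, Cpm at 0.315 and 0.0324 RPKM) and 1 upwards (Ccr2 near the copy of Cdkn2d, listed at 0 and at 0.183 RPKM). No test was run behind these counts.

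The other known p53 target genes showed no common direction in this pair of p53-null lines. Of 38 listed genes, 36 had an entry and 35 passed the filter. Of these, 6 were beyond 2-fold upwards and 6 downwards, 17.1% each, beside 8.47% and 10.9% over all genes. Their median change was -0.14, close to that of all genes. The lower ones were Pmaip1, which encodes the BH3-only protein Noxa (4.12 and 0.0280 RPKM), the stress-response sestrins Sesn2 (13.6 and 3.56 RPKM) and Sesn1 (29.0 and 9.31 RPKM), Trp53inp1 (1.18 and 0.264 RPKM), the desmosomal Perp (1.68 and 0.537 RPKM) and the ribonucleotide reductase subunit Rrm2b (3.33 and 1.56 RPKM). Rrm2b came to lie within 2-fold relative to the median. The higher ones included the secreted Thbs1 (65.4 and 1034 RPKM), the cytokine Gdf15 (0.180 and 5.89 RPKM), the peptide transporter Tap1 (0.537 and 4.71 RPKM), the death receptor Tnfrsf10b (4.76 and 19.4 RPKM) and the receptor kinase Epha2 (15.6 and 32.2 RPKM). Bax, the apoptotic effector that Puma and Noxa act upon, was at 56.7 and 51.2 RPKM. With the 4 member targets added, 39 entries passed, 6 of them higher (15.4%) and 8 lower (20.5%).

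Among 23 regulators and relatives of p53, 21 passed the filter, with a median of -0.37. Of these, 0 were more than 2-fold higher and 2 (9.52%) were lower, beside 8.47% and 10.9% over all genes. The lower ones were Sirt1, a deacetylase of p53 (9.65 and 3.79 RPKM), and Hipk2, a kinase of p53 (9.35 and 4.28 RPKM, within 2-fold relative to the median). The ribosomal proteins Rpl5 (385.3 and 218.1 RPKM) and Rpl11 (319.1 and 234.3 RPKM), which bind Mdm2, stayed within 2-fold.

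Cyclins, CDKs and the enzymes that control CDK phosphorylation were taken as a list of their own. Of 20 such genes, all of which passed the filter, 0 were more than 2-fold higher and 1 was lower, the mitotic cyclin Ccnb2 (40.4 and 9.19 RPKM), with a median of -0.04, beside 8.47% and 10.9% over all genes. Cdk4 was at 235.6 and 204.3 RPKM, Cdk1 at 68.2 and 119.2 RPKM and Ccnd2 at 92.6 and 90.4 RPKM. Ccnd1 was at 79.5 and 76.2 RPKM. Of 14 entries for the Rb and E2f families, 2 were lower and 0 higher, namely E2f2 (1.13 and 0.402 RPKM) and 1 of the 2 entries of Rb1 (1.31 and 0.520 RPKM). The other entry of Rb1 was at 2.26 and 1.85 RPKM, and the median of the list was -0.06.

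Of 19 entries for known regulators of Cdkn2a and Cdkn2b, 17 passed, 2 were higher, 1 was lower and the median was -0.16. These are 11.8% and 5.88% of those that passed, beside 8.47% and 10.9% over all genes. Bmi1, the Polycomb protein best known as a repressor of Cdkn2a, was at 18.8 and 7.41 RPKM, lower in Dnmt1-/- together with Cdkn2a. Id1, an inhibitor of the factors that activate Ink4a, was at 4.33 and 58.1 RPKM, and Tbx3, a T-box repressor of Arf, was at 0.712 and 4.25 RPKM. Ezh2, the Polycomb methyltransferase, was at 47.9 and 42.8 RPKM. The part of any of these in the levels of Cdkn2a and Cdkn2b was not tested.

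Of 11 genes for the turnover and partners of CDK inhibitors, 0 were beyond 2-fold either way and the median was -0.25. Skp2, the F-box protein that targets p27, was at 18.4 and 10.2 RPKM, and Npm1, the nucleolar partner of Arf, at 1202 and 830.2 RPKM. Of 4 other genes with names drawn from CDK inhibitors, 3 passed, 0 were beyond 2-fold and the median was 0.22. Of 20 ubiquitously expressed genes, 0 were beyond 2-fold and the median was 0.01. Over all genes kept, 8.47% were beyond 2-fold upwards and 10.9% downwards.

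**Figure D5:**
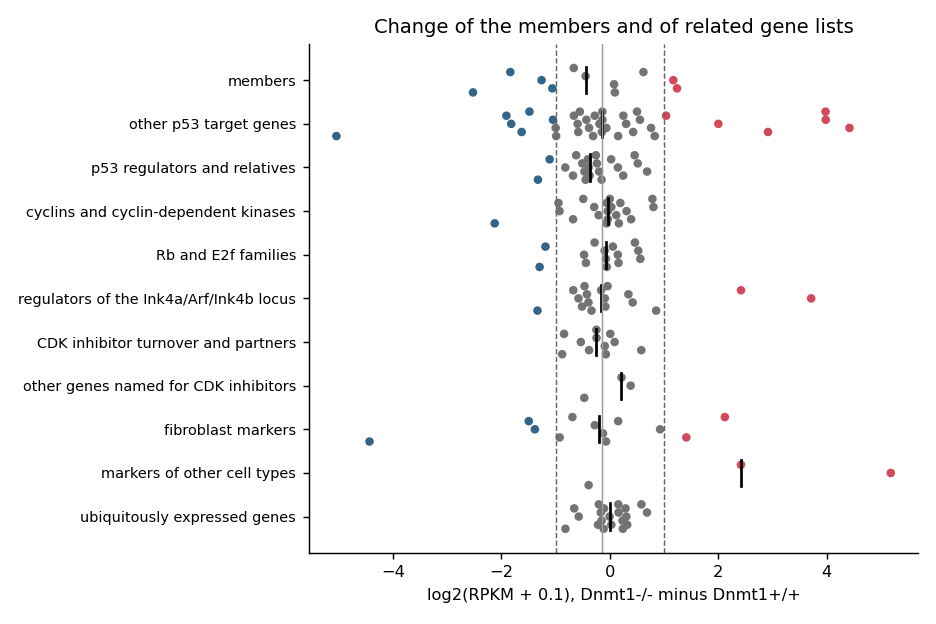
Change in log2(RPKM + 0.1), Dnmt1-/- minus Dnmt1+/+, of the member entries and of the listed genes that passed the filter, 1 point per entry, with a black bar at each list's median. Dashed lines mark 2-fold and the grey line the median of all genes, and the spread within a row's height carries no value. The 20 ubiquitously expressed genes all lie between the dashed lines, whereas the other p53 target genes spread to both sides.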

How the data were processed

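Messenger RNA of Dnmt1+/+ and Dnmt1-/- MEFs was sequenced from strand-specific libraries with 50 bp single-end reads, 1 library per genotype. The deposited RPKM values, 1 column per library, came from a TopHat alignment to mm9 that the authors passed through Cufflinks and Cuffdiff. Versions of these programs are not given in the sources used here. RPKM values carry no counts, so no interval or detection limit is given, and a 0 is called listed at 0.

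Entries with status OK, a symbol and at least 1 RPKM in either library were kept. The change was taken as the difference in log2(RPKM + 0.1), and 2-fold was used as a limit of size, with no test. The members and gene lists were chosen with earlier results of these data known. Genes named by rule are the members, list entries beyond 2-fold, up to 3 further abundant entries per list, the nearest 2 named neighbours, and Dnmt1. Mdm4, Trp63, Trp73, Ccnd1, Cdk6, Skp2 and Cdkn1c fall outside this rule and were named by choice. So were Xist, Ddx3y, the second entry of Rb1 and the markers of other cell types under 1 RPKM. A gene that the rule covers is not reported here. Starts in the table were counted from 0, and 1 was added. Gene structures were taken from GENCODE vM1 (mm9) and upstream sequences from RefSeq (GRCm38.p6), without conversion between builds. All 10 genes matched. Simulated data were used only to check the calculation of the fold calls, and they carry no measure of the error between cultures. Python 3.11.15, pandas 2.3.3 and biopython 1.88 were used.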

Additional observations from a re-analysis of the deposited data

Results flagged for a closer look

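An entry without a gene symbol near Cdkn2c, at chr4:109329052-109329325 in mm9 and 274 bp long, lay outside the comparisons of named genes. It was at 0.811 RPKM in Dnmt1+/+ and 3.96 RPKM in Dnmt1-/-, 4.88-fold higher, and so stood above its level in the control library. Its 2 values are in the ratio of 3 reads to 16 reads, or a multiple of these.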

How the results depend on the processing

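No paired analysis was possible because each genotype has 1 library, and for the same reason no library could be left out. Of 55 member values recomputed under 5 settings of pseudocount and scaling, 53 kept their side of 2-fold and 2 did not, both of Bbc3 (-0.83 with a pseudocount of 1 and -0.92 with the median of all genes subtracted). The median of the member entries, -0.45, was -0.31 with that median subtracted. With a limit of 3-fold, 0 member entries were higher and 2 lower, and with Cdkn2d counted once, an alternative chosen after seeing the data, 1 was higher. Over all genes, 952 higher of 11244 became 1475 of 14865 without the filter on low RPKM. At 1.5-fold the count was 1580 and at 3-fold 634, both of 11244. The 1225 lower became 801 with a pseudocount of 1, 2670 at 1.5-fold and 530 at 3-fold. With the median of all genes subtracted, 1092 genes were higher and 965 lower, so the larger count changed sides. The paper gives the number of mapped reads of each library, but the reads behind each member value were not recovered. The spread between cultures or lines was not measured in the mRNA-seq libraries. The paper also reports expression microarrays and RT-qPCR of these cells with replicates, which were not analysed here.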
